A study of Mus musculus with 21 samples.

Results

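The miR-344 family is a group of small RNAs that are named together and that arise in the mouse from neighbouring hairpins on chromosome 7. Its members were taken by name: every miRNA whose name, without the species prefix, begins with miR-344, with any letter and either arm of the hairpin. The family was selected on the difference of miR-344d-3p: this member differed from wild type in the virgin cohort, so its values in those comparisons are given as a description without a p. For the virgin cohort 18 such names were listed among 1909 miRNAs, and for the breeding trial cohort 17 among 1841. Of these, 9 had a mean raw count of at least 10 in the virgin libraries and 1 in the breeding trial libraries, and they are described one by one. The pituitaries came from female C57BL/6J mice staged for proestrus, with 21 libraries from 21 mice. Zeb1_WT animals carried the unaltered gene, Zeb1_200H animals were heterozygous and Zeb1_200M animals homozygous for a knock-in allele of Zeb1 whose 3′ UTR has mutated sites for miR-200a and miR-200b. The virgin cohort, aged 8 to 12 weeks, held 3 WT, 4 Zeb1_200H and 4 Zeb1_200M libraries, and the breeding trial cohort, aged 28 to 36 weeks, held 4 WT, 3 Zeb1_200H and 3 Zeb1_200M libraries. The allele was made in embryonic stem cell clones and is present in every cell of the animal, and each library holds the RNA of a whole pituitary with all its cell types.

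A miRNA is cut from a hairpin precursor and guides Argonaute proteins to messenger RNAs that pair with its seed, a short stretch near its 5′ end. Members of a family that share a seed are generally held to act on overlapping sets of messenger RNAs, while members with different seeds are not. ZEB1 is a transcription factor that represses epithelial genes, among them those of the miR-200 family, and miR-344 has been described mainly in the rodent nervous system.

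Mature sequences of all 18 names were found in RefSeq (GRCm38.p6), and they held 11 different seeds, 7 of them among the 9 members described. The sequences of the 9 described members show which of them share a seed, and the capitals mark that seed, bases 2 to 8 from the 5′ end. miR-344d-3p and miR-344e-3p had the same seed, as had miR-344-3p and miR-344c-3p, whereas the other 5 described members each had a seed that no other described member carried.
miR-344-3p: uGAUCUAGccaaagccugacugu
miR-344c-3p: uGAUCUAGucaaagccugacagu
miR-344b-3p: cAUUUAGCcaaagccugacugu
miR-344d-3p: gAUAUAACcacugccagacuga
miR-344e-3p: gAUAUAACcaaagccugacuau
miR-344h-3p: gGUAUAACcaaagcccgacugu
miR-344f-5p: aGUCAGUCuccuggcuggaguc
miR-344g-5p: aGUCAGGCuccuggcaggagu
miR-344i: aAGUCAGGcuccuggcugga

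With positions counted from 1 at the 5′ end, miR-344d-3p differed from miR-344e-3p by C11A, U12A, A16U, G21A and A22U, all outside the seed. Its differences from miR-344h-3p were A2G, C11A, U12A, A16C and A22U, of which A2G lies in the seed. miR-344e-3p and miR-344h-3p differed from each other by A2G, U16C and A21G. miR-344-3p and miR-344c-3p differed by C9U and U21A, so that 1 base in the first 19 set them apart, and their counts are uncertain to the extent that a read error at that base could move a read between them. Over the first 19 bases, the stretch matched in the virgin cohort, miR-344d-3p was 3 bases from its nearest relative miR-344e-3p, and each described member was at least 6 bases from any listed miRNA outside the family.

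The 13 hairpins lay on the minus strand of chromosome 7 (GRCm38) between positions 61683124 and 62085310, a stretch of 402187 bp. Mir344d-1 (ENSMUSG00000092847, 61683124 to 61683192), Mir344d-2 (ENSMUSG00000096893, 61685272 to 61685351) and Mir344d-3 (ENSMUSG00000095292, 61726249 to 61726328) all give miR-344d-3p. Next came Mir344e (ENSMUSG00000077869, 61735537 to 61735602), Mir344h-1 (ENSMUSG00000094173, 61739350 to 61739409) and Mir344h-2 (ENSMUSG00000096189, 61742366 to 61742425). Mir344b (ENSMUSG00000092921) started at 61790519, Mir344c (ENSMUSG00000077107) at 61837311, Mir344 (ENSMUSG00000065568) at 61877770 and Mir344-2 (ENSMUSG00000093187) at 61940027. The last 3 were Mir344g (ENSMUSG00000092850) at 61982289, Mir344f (ENSMUSG00000093108) at 62046181 and Mir344i (ENSMUSG00000095154) at 62085223. A run of 7 hairpins, from Mir344d-3 to Mir344, lay in introns of the long noncoding RNA A230057D06Rik (ENSMUSG00000109394, 61704519 to 61928690) on the same strand. Mir344-2 lay in an intron of the noncoding transcript A330076H08Rik (ENSMUSG00000109321, 61930137 to 61982358), and Mir344g overlapped an exon of it in 3 of 3 annotated transcripts. Mir344d-1, Mir344d-2, Mir344f and Mir344i lay between annotated genes. The nearest protein-coding genes were Ndn, 261258 bp above the stretch, and Snrpn, 1542904 bp below it, both known as imprinted genes.

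miR-344d-3p can come from 3 hairpins, and miR-344-3p and miR-344h-3p from 2 each, so their reads could not be assigned to a hairpin. The 5p arms of the d hairpins differ in sequence, and their virgin reads summed to 94 for miR-344d-3-5p, 8 for miR-344d-1-5p and 0 for miR-344d-2-5p. By these arms, most of the assignable reads came from the hairpin inside A230057D06Rik.

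**Figure D1:**
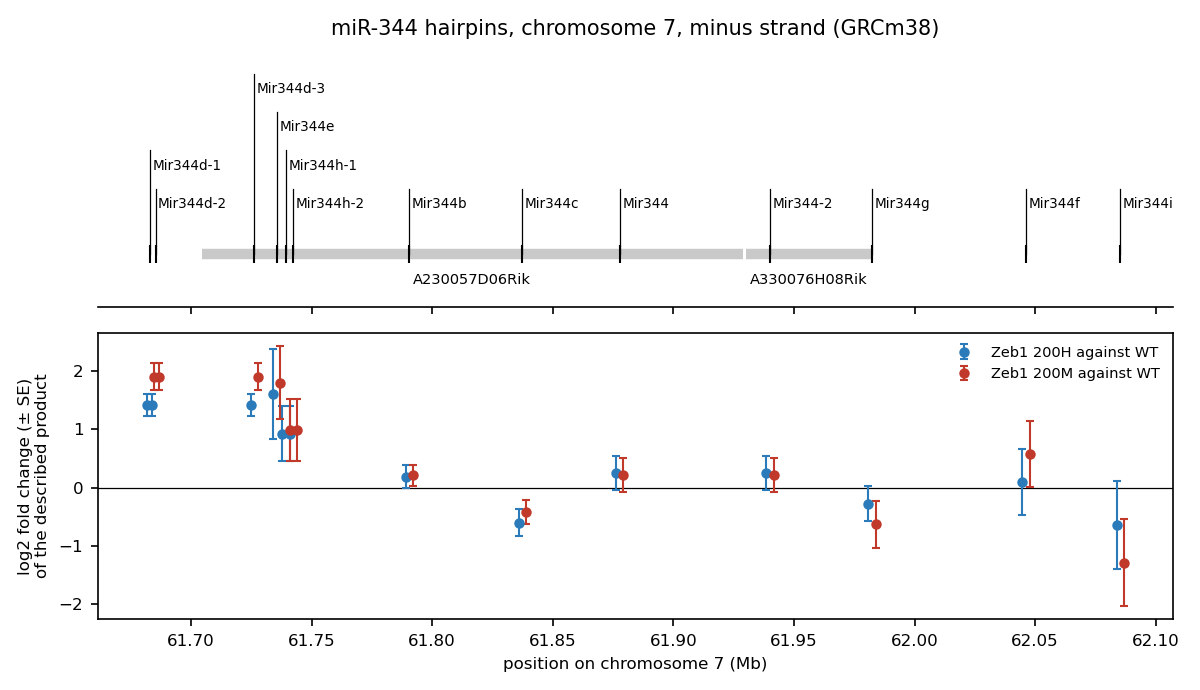
The upper panel places the 13 hairpins on chromosome 7 in Mb, with the noncoding transcripts as grey bars; the lower panel gives, at the position of each hairpin, the fitted log2 fold change ± SE of its described product in virgin Zeb1_200H (blue) and Zeb1_200M (red) against WT. The 9 products include miR-344d-3p, on which the family was selected, drawn at 3 hairpins (1.42 and 1.90), and miR-344-3p (0.25 and 0.22) and miR-344h-3p (0.92 and 0.99), drawn at 2 each, with the sign turning for miR-344g-5p in Zeb1_200H with library totals (0.01), for miR-344f-5p in Zeb1_200H in DESeq2 (−0.09) and on omission of single libraries, and for miR-344-3p and miR-344i without WT replicate 1.

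Counted miRNA reads of the virgin cohort were 3816917, 10806313 and 9029142 in WT replicates 1, 2 and 4. The 4 Zeb1_200H libraries held 8551806 to 10266419 reads (median 9890379) and the 4 Zeb1_200M libraries 8502878 to 10515664 (median 9884503). Breeding trial libraries were far shallower, with 84093 to 191650 reads in WT, 60037 to 131324 in Zeb1_200H and 87665 to 124190 in Zeb1_200M. A count of 0 allows a level of up to 0.278 to 0.786 CPM (counts scaled to the total of counted miRNA reads) in the virgin libraries and up to 15.7 to 49.97 CPM in the breeding trial libraries, taking 3 reads as the limit, and these limits cover counting error only. The 2 cohorts also differed in library preparation and in the read length matched, so that age, breeding and processing cannot be told apart. The paper reported that most Zeb1_200M females of the breeding trial bore no litter. Within that cohort, genotype and pregnancy history therefore cannot be told apart for Zeb1_200M.

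WT replicate 1 of the virgin cohort stood apart over all miRNAs. It had the fewest reads of the virgin cohort, and its scaling factor by the trimmed mean of M values (TMM) was 0.616, against 0.943 to 1.12 in the other 10 virgin libraries. Each virgin comparison with WT is therefore given with and without it. Omitting it left 2 WT libraries and raised the miRNAs past the threshold from 44 of 678 to 168 of 703 for Zeb1_200M and from 34 of 672 to 151 of 699 for Zeb1_200H, in edgeR's quasi-likelihood test at an adjusted p of 0.05.

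In virgin WT pituitary the members spanned a wide range of levels. miR-344-3p, at 297 ± 171 CPM (SD, n = 3), ranked 179 among 1170 miRNAs with a WT read. It was followed by miR-344b-3p (rank 445), miR-344c-3p (rank 451) and miR-344d-3p (rank 481), at 9.11 ± 1.3804, 8.14 ± 1.89 and 5.73 ± 1.58 CPM, where the range of mean ± SD of miR-344c-3p overlapped those of miR-344b-3p and miR-344d-3p. Below them stood miR-344i at 3.92 ± 3.87 CPM, miR-344g-5p at 2.73 ± 0.458, miR-344f-5p at 1.20 ± 0.782, miR-344h-3p at 0.474 ± 0.416 and miR-344e-3p at 0.289 ± 0.423 CPM. The SDs of miR-344h-3p and miR-344e-3p covered each other's mean, and the WT counts of both were 0 to 7 reads. Just inside the limit of 10 reads were miR-344h-3p and miR-344e-3p, with mean raw counts of 10.6 and 10.1 that the knock-in libraries carried (WT means 4.67 and 2.67), and just outside it were miR-344d-3-5p with 8.55 and miR-344-5p with 7.09. The remaining virgin names had mean counts of 4.18 (miR-344f-3p and miR-344g-3p), 1.73 (miR-344b-5p), 0.818 (miR-344c-5p), 0.727 (miR-344d-1-5p), 0.182 (miR-344e/h-5p) and 0 (miR-344d-2-5p).

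Among the virgin libraries, miR-344-3p counted 101 CPM in WT replicate 1, 372 in WT replicate 2 and 417 in WT replicate 4. The Zeb1_200H libraries held 419.5, 389.9, 426 and 407 CPM and the Zeb1_200M libraries 431, 444, 428 and 374 CPM. WT replicate 1 was low, and the other 10 libraries lay close together with overlapping groups. The fitted log2 fold change against WT was 0.22 (SE 0.29, adjusted p = 0.685, edgeR) in Zeb1_200M and 0.25 (SE 0.29, adjusted p = 0.667, edgeR) in Zeb1_200H. Without WT replicate 1 these turned to −0.07 in both comparisons (adjusted p = 0.607 and 0.636, edgeR), with SEs of 0.0930 and 0.0841. The difference between Zeb1_200M and Zeb1_200H was −0.03 (SE 0.07, adjusted p = 0.938, edgeR) and turned to 0.03 when scaled by library totals.

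miR-344d-3p stood at 3.93, 6.39 and 6.87 CPM in WT replicates 1, 2 and 4, from 15, 69 and 62 reads. In Zeb1_200H it stood at 20.4, 20.4, 15.4 and 20.3 CPM, from 155 to 209 reads. In Zeb1_200M it stood at 31.9, 21.1, 32.9 and 24.6 CPM, from 201 to 335 reads. All 8 knock-in libraries lay above all 3 WT libraries, and in CPM the 4 Zeb1_200M libraries lay above the 4 Zeb1_200H libraries, although on the TMM scale Zeb1_200M replicate 2 (18.9 CPM) fell below Zeb1_200H replicate 1 (19.6 CPM). Group means were 5.73 ± 1.58 CPM in WT (n = 3), 19.1 ± 2.4998 in Zeb1_200H and 27.6 ± 5.70 in Zeb1_200M (SD, n = 4 each). As a description, the fitted difference from WT was 1.90 on the log2 scale in Zeb1_200M (SE 0.23, 3.73-fold) and 1.42 in Zeb1_200H (SE 0.19, 2.68-fold), and without WT replicate 1 it was 1.90 and 1.40. In whole tissue, more cells that contain a miRNA and more of it per cell cannot be told apart, and the same holds for fewer cells and less RNA.

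The Zeb1_200M and Zeb1_200H libraries were also set against each other for miR-344d-3p. The fitted difference was 0.48 on the log2 scale (SE 0.16, 1.39-fold), given as a description because these are the knock-in libraries that drew attention to the family.

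**Figure D2:**
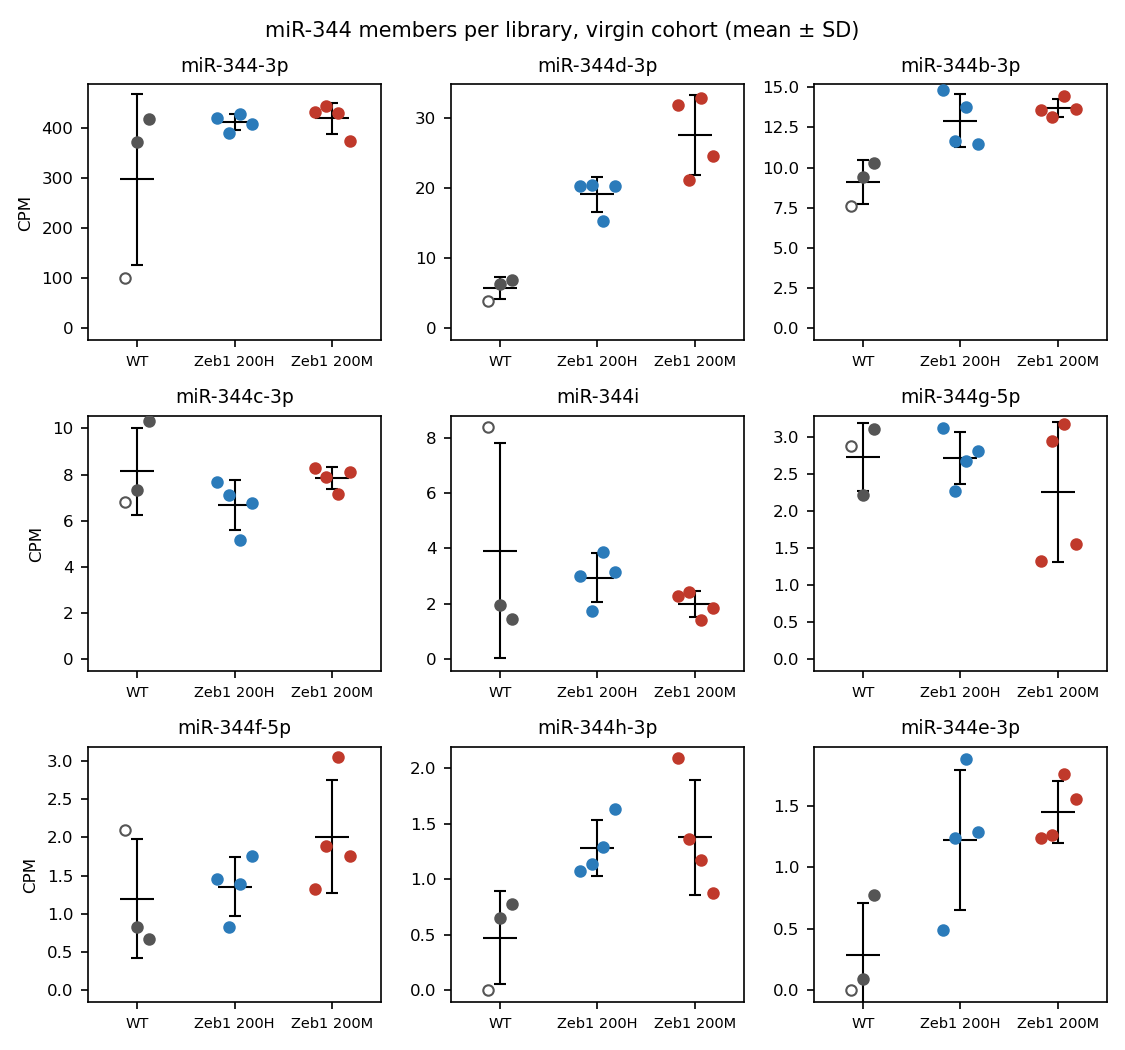
Level in CPM (y axis) of the 9 described members in each virgin library by genotype (x axis), with bars for the mean ± SD and an open circle for WT replicate 1. miR-344d-3p ran from 3.93 to 6.87 CPM in WT and from 15.4 to 32.9 CPM in the knock-in libraries, while miR-344-3p outside WT replicate 1 ran from 372 to 444 CPM.

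miR-344e-3p, which shares the seed of miR-344d-3p, counted 0, 1 and 7 reads in the WT libraries (0, 0.0925 and 0.775 CPM). It stood at 0.487, 1.24, 1.88 and 1.29 CPM in Zeb1_200H and at 1.24, 1.26, 1.76 and 1.56 CPM in Zeb1_200M. Every Zeb1_200M library lay above every WT library, whereas Zeb1_200H replicate 1 fell below WT replicate 4. The fitted difference of Zeb1_200M from WT was 1.80 (SE 0.63, adjusted p = 0.142, edgeR), and 1.64 without WT replicate 1 (adjusted p = 0.0873, edgeR). Leaving out WT replicate 4, which held 7 of the 8 WT reads, gave 3.88 (adjusted p = 0.0273, edgeR), a value that rests on 1 WT read and from which no difference is read. For Zeb1_200H against WT it was 1.61 (SE 0.77, adjusted p = 0.280, edgeR), or 1.43 without WT replicate 1 (adjusted p = 0.212, edgeR) and 3.67 without WT replicate 4 (adjusted p = 0.131, edgeR). This member was kept by the limit and the low-count filter through its knock-in counts, and its WT level rested on very few reads.

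miR-344h-3p counted 0, 7 and 7 reads in WT (0, 0.648 and 0.775 CPM). It stood at 1.07, 1.13, 1.29 and 1.64 CPM in Zeb1_200H and at 2.09, 1.37, 1.176 and 0.877 CPM in Zeb1_200M. All 8 knock-in libraries lay above the WT libraries, by a narrow margin for Zeb1_200M replicate 4. The knock-in counts brought the member over the limit for description and the low-count filter, so that no difference is read from it. The fitted differences, 0.99 for Zeb1_200M (SE 0.53, adjusted p = 0.297, edgeR) and 0.92 for Zeb1_200H (SE 0.47, adjusted p = 0.290, edgeR), did not pass the threshold, nor did those without WT replicate 1, 0.80 and 0.71 (adjusted p = 0.304 and 0.323, edgeR).

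miR-344d-3-5p, the other arm of Mir344d-3 and below the limit for description, counted 2, 4 and 2 reads in WT, 5 to 14 in Zeb1_200H and 7 to 16 in Zeb1_200M. In CPM these were 0.524, 0.370 and 0.222 in WT, 0.585 to 1.39 (median 0.854) in Zeb1_200H and 0.682 to 1.58 (median 1.47) in Zeb1_200M. The knock-in groups lay above WT in CPM, but on the TMM scale WT replicate 1 (0.851) exceeded Zeb1_200M replicate 4 (0.639). Zeb1_200M was 1.59 above WT (SE 0.52, adjusted p = 0.1198, edgeR), and without WT replicate 1 the difference was 1.90 with an adjusted p of 0.0452 (edgeR). In the comparison of Zeb1_200H with WT this arm was not kept by the filter on low counts.

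miR-344b-3p stood at 7.60, 9.44 and 10.3 CPM in WT, at 14.8, 11.7, 13.8 and 11.5 CPM in Zeb1_200H and at 13.6, 13.1, 14.5 and 13.6 CPM in Zeb1_200M. In CPM both knock-in groups lay above WT, but on the TMM scale WT replicate 1 (12.3) lay within them. The fitted differences were 0.22 in Zeb1_200M (SE 0.18, adjusted p = 0.502, edgeR) and 0.19 in Zeb1_200H (SE 0.20, adjusted p = 0.622, edgeR), and without WT replicate 1 they were 0.32 and 0.27 (adjusted p = 0.191 and 0.345, edgeR).

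miR-344c-3p, which has the seed of miR-344-3p, stood at 6.81, 7.31 and 10.3 CPM in WT, at 7.69, 7.11, 5.16 and 6.78 CPM in Zeb1_200H and at 8.27, 7.89, 7.17 and 8.09 CPM in Zeb1_200M. In CPM the groups overlapped, with the highest value in WT replicate 4, but on the TMM scale every Zeb1_200H library (4.98 to 7.40) lay below every WT library (7.75 to 11.1), with the highest value in WT replicate 1. Its fitted difference from WT was −0.60 in Zeb1_200H (SE 0.23, adjusted p = 0.195, edgeR) and −0.42 in Zeb1_200M (SE 0.21, adjusted p = 0.278, edgeR), both short of the threshold, and −0.52 and −0.32 without WT replicate 1 (adjusted p = 0.114 and 0.308, edgeR).

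The 5p products were low and their groups overlapped. miR-344f-5p stood at 2.10, 0.833 and 0.665 CPM in WT and at 1.33, 1.89, 3.06 and 1.75 CPM in Zeb1_200M, with 0.825 to 1.75 CPM (median 1.42) in Zeb1_200H. WT replicate 1 was the highest WT library, and without it the Zeb1_200M libraries lay above WT and the fitted difference moved from 0.58 (adjusted p = 0.574, edgeR) to 1.22 (adjusted p = 0.0867, edgeR). The knock-in counts brought miR-344f-5p over the limit for description and the low-count filter, so that no difference is read from it. In Zeb1_200H the difference was 0.10 (adjusted p = 0.944, edgeR), or 0.70 without WT replicate 1 (adjusted p = 0.358, edgeR), and −0.09 in DESeq2. miR-344i showed the same library even more strongly, with 8.38 CPM in WT replicate 1 against 1.94 and 1.44 in the other WT libraries, 1.75 to 3.87 in Zeb1_200H and 1.41 to 2.42 in Zeb1_200M. Its difference from WT went from −1.29 (adjusted p = 0.335, edgeR) to 0.07 (adjusted p = 0.908, edgeR) in Zeb1_200M, and from −0.64 (adjusted p = 0.671, edgeR) to 0.66 (adjusted p = 0.267, edgeR) in Zeb1_200H, when WT replicate 1 was omitted. miR-344g-5p ran from 2.22 to 3.10 CPM in WT, 2.27 to 3.12 in Zeb1_200H and 1.33 to 3.18 in Zeb1_200M. It differed from WT by −0.63 in Zeb1_200M (adjusted p = 0.370, edgeR; −0.41 without WT replicate 1) and by −0.28 in Zeb1_200H (adjusted p = 0.677, edgeR; −0.08 without WT replicate 1), the latter turning to 0.01 with library totals.

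Between Zeb1_200M and Zeb1_200H none of the other members passed the threshold. miR-344i differed by −0.61 (SE 0.29, adjusted p = 0.516, edgeR), and the estimates of the other 8 that were tested ran from −0.35 for miR-344g-5p to 0.49 for miR-344f-5p, with adjusted p-values of 0.706 to 0.981 in edgeR.

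Counted over the family, 10 of 18 names passed the low-count filter in each virgin comparison. As miR-344d-3p was the member on which the family was selected, the counts are of the other 9, and nothing is read from its own values. For Zeb1_200M against WT edgeR called 0 of these 9 at an adjusted p of 0.05, beside 6.49% of all 678 miRNAs tested, with 2 at an unadjusted p below 0.05 and 0 called by DESeq2. These 2 were miR-344d-3-5p and miR-344e-3p, which the filter kept through their knock-in counts, so that no difference is read from them. For Zeb1_200H against WT edgeR called 0 of 9, beside 5.06% of 672 miRNAs, with 1 at an unadjusted p below 0.05 and 0 called by DESeq2. For Zeb1_200M against Zeb1_200H edgeR called 0 of 9, beside 2.22% of 675 miRNAs, with 0 at an unadjusted p below 0.05 and 0 called by DESeq2. Without WT replicate 1, 1 of 10 was called for Zeb1_200M, beside 23.9% of all tested: miR-344d-3-5p, which had 2, 4 and 2 WT reads and which the filter kept through its Zeb1_200M counts, so that no difference is read from it, and 0 of 10 for Zeb1_200H, beside 21.6%, with 1 at an unadjusted p below 0.05 in edgeR. Omitting WT replicate 4 instead, 1 of 9 was called for Zeb1_200M (miR-344e-3p, on 1 WT read), where 4.69% of 704 miRNAs were.

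Of the 8 described members other than miR-344d-3p, 3 did not overlap in CPM for Zeb1_200M against WT (miR-344b-3p, miR-344e-3p and miR-344h-3p), all higher in Zeb1_200M, while miR-344e-3p and miR-344h-3p had reached the limit for description through the knock-in libraries; 30.5% of all miRNAs tested were higher without overlap. For Zeb1_200H against WT there were 2 of 8 (miR-344b-3p and miR-344h-3p), beside 28.4% of all tested. For Zeb1_200M against Zeb1_200H there was 0 of 8, beside 5.93%. In CPM no described member was lower without overlap in these comparisons, beside 4.57%, 4.76% and 1.93% of all tested. Without WT replicate 1 the numbers were 4 of 8 for Zeb1_200M, beside 36.0%, and 2 of 8 for Zeb1_200H, beside 32.9%. The member added for Zeb1_200M was miR-344f-5p, which had also reached the limit for description through the knock-in libraries. On the TMM scale, with all libraries, 2 of 8 were higher for Zeb1_200M, beside 13.9% of all tested, and 1 of 8 for Zeb1_200H, beside 13.5%, as miR-344b-3p overlapped there, and 1 of 8 was lower for Zeb1_200H (miR-344c-3p), beside 11.9%. The comparisons of Zeb1_200M and of Zeb1_200H with WT share the same WT libraries. With library totals in place of TMM, the median of all miRNAs stood at 0.34 and 0.29 on the log2 scale in these comparisons. It stood at 0.24 and 0.18 in the corresponding breeding trial comparisons, and at less than 0.1 between the knock-in groups. With TMM the medians of the comparisons with WT were −0.0025 to 0.0062.

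The sum of all family reads was set largely by miR-344-3p. It came to 134, 402 and 455 CPM in WT, 473, 438, 475 and 461 CPM in Zeb1_200H and 496, 500.0, 497 and 431 CPM in Zeb1_200M. WT replicate 1 was lowest, and the knock-in groups overlapped with WT replicate 4. miR-344-3p made up 86.6 ± 9.57% of family reads in WT (n = 3), 88.9 ± 0.616% in Zeb1_200H and 87.1 ± 1.12% in Zeb1_200M (SD, n = 4 each). miR-344d-3p made up 2.01 ± 0.802%, 4.15 ± 0.628% and 5.74 ± 1.09% in the same order. The share of miR-344-3p was 75.5% in WT replicate 1, against 92.5% and 91.7% in WT replicates 2 and 4. Without WT replicate 1, WT lay above every knock-in library in this share (86.2 to 89.8%).

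The number of miR-344d-3p reads for every 100 miR-344-3p reads does not depend on library scaling. It was 3.89, 1.72 and 1.65 in virgin WT, 4.85, 5.24, 3.60 and 4.99 in Zeb1_200H and 7.40, 4.77, 7.69 and 6.57 in Zeb1_200M. Zeb1_200M lay above WT, while WT replicate 1, with its low miR-344-3p, lay just above Zeb1_200H replicate 3, and the knock-in groups overlapped. In the breeding trial cohort the ratio was 2.08, 4.00, 0 and 3.23 in WT, 10.0, 0 and 5.26 in Zeb1_200H and 19.05, 12.2 and 11.1 in Zeb1_200M. There the 3 Zeb1_200M libraries lay above all others, on 12 miR-344d-3p reads against 89 miR-344-3p reads, compared with 5 against 189 in WT and 5 against 91 in Zeb1_200H. As these ratios hold the member on which the family was chosen, they are given without a test.

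**Figure D3:**
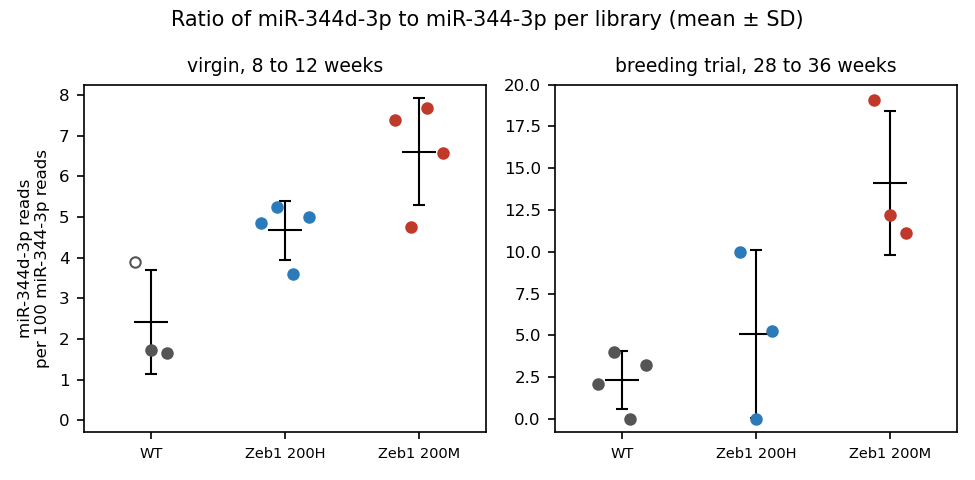
Reads of miR-344d-3p per 100 reads of miR-344-3p (y axis) in each library by genotype (x axis) for the virgin (left) and breeding trial (right) cohorts, with bars for the mean ± SD and an open circle for virgin WT replicate 1. Group means were 2.42, 4.67 and 6.61 in the virgin cohort and 2.33, 5.09 and 14.1 in the breeding trial cohort, for WT, Zeb1_200H and Zeb1_200M in that order.

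In the breeding trial cohort 11 of the 17 family names had a read and 1, miR-344-3p, had a mean raw count of at least 10 (36.9). It ranked 167 among 641 miRNAs with a WT read. It stood at 311, 439, 345 and 324 CPM in WT, at 273, 383 and 289 CPM in Zeb1_200H and at 239.5, 330.1 and 219.9 CPM in Zeb1_200M, from 21 to 62 reads a library. Zeb1_200M replicates 1 and 3 lay below all WT libraries, while Zeb1_200M replicate 2 lay among them in CPM. On the TMM scale all 3 Zeb1_200M libraries (202 to 310.1) lay below all 4 WT libraries (337 to 459.7), as did 19.6% of the 276 miRNAs tested. miR-344-3p fell in Zeb1_200M against WT by 0.63 on the log2 scale (SE 0.22, adjusted p = 0.0245, edgeR) and was the 1 family name tested, beside 35.9% of the 276 miRNAs tested that were called in this comparison. DESeq2 did not call it (−0.67, adjusted p = 0.0676), and scaling by library totals gave −0.40 (adjusted p = 0.150, edgeR). The edgeR call was also lost without WT replicate 2 (−0.52, adjusted p = 0.0827), without Zeb1_200M replicate 1 (−0.58, adjusted p = 0.0865) and without Zeb1_200M replicate 3 (−0.47, adjusted p = 0.163).

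For Zeb1_200H against WT in the same cohort miR-344-3p differed by −0.37 (SE 0.22, adjusted p = 0.274, edgeR), so 0 of 1 family names was called, beside 12.0% of 267 miRNAs. For Zeb1_200M against Zeb1_200H it differed by −0.24 (SE 0.26, adjusted p = 0.708, edgeR), again 0 of 1, beside 1.09% of 274 miRNAs. In both comparisons 0 had an unadjusted p below 0.05 and DESeq2 called 0. As miR-344-3p passed the threshold against WT in the breeding trial cohort and not in the virgin cohort, the difference between cohorts was tested over 566 shared miRNAs. The effect of Zeb1_200M was 0.85 higher in the virgin cohort (SE 0.34, adjusted p = 0.550, edgeR), or 0.50 without WT replicate 1 (adjusted p = 0.607), and that of Zeb1_200H was 0.61 higher (SE 0.34, adjusted p = 0.580, edgeR), or 0.27 without it (adjusted p = 0.841). The difference between cohorts thus did not pass the threshold.

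miR-344d-3p and miR-344b-3p were too low for that fit in the breeding trial cohort but had mean counts of at least 1, and were compared by permutation of the libraries. miR-344d-3p counted 1, 2, 0 and 2 reads in WT (6.47, 17.6, 0 and 10.4 CPM), 3, 0 and 2 in Zeb1_200H (27.3, 0 and 15.2 CPM) and 4, 5 and 3 in Zeb1_200M (45.6, 40.3 and 24.4 CPM). miR-344b-3p counted 3, 0, 0 and 4 reads in WT (19.4, 0, 0 and 20.9 CPM), 1, 0 and 3 in Zeb1_200H (9.09, 0 and 22.8 CPM) and 3, 6 and 4 in Zeb1_200M (34.2, 48.3 and 32.6 CPM). For both members the 3 Zeb1_200M libraries lay above the 4 WT libraries in CPM, as did 25.2% of the 437 miRNAs with a mean count of at least 1 in this comparison.

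The mean of miR-344d-3p was 36.8 CPM in Zeb1_200M and 8.61 CPM in WT, a difference of 28.2 CPM with an exact two-sided permutation p of 0.0286, the smallest that 35 arrangements allow, and an adjusted p of 0.0857 over 6 tests. The mean of miR-344b-3p was 38.4 CPM against 10.1 CPM, a difference of 28.3 CPM with the same exact permutation p and adjusted p. Between Zeb1_200M and Zeb1_200H the differences were 22.6 CPM for miR-344d-3p (exact permutation p = 0.2) and 27.7 CPM for miR-344b-3p (exact permutation p = 0.1, the smallest that 20 arrangements allow). Between Zeb1_200H and WT they were 5.55 CPM (exact permutation p = 0.543) and 0.574 CPM (exact permutation p = 1). None of the 6 tests passed an adjusted p of 0.05, and groups of this size leave little room to pass it.

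The depth of the breeding trial libraries bears directly on these counts. At the mean virgin CPM of its genotype, miR-344d-3p would have given 3.12 reads over the 4 WT libraries, 5.76 over the 3 Zeb1_200H libraries and 9.24 over the 3 Zeb1_200M libraries, and 5, 5 and 12 were counted. For miR-344b-3p the same reckoning gave 4.96, 3.90 and 4.59 reads, and 7, 4 and 13 were counted. For miR-344-3p it gave 162, 124 and 140.2 reads, and 189, 91 and 89 were counted. The virgin WT mean behind the 162 includes WT replicate 1, which was low for miR-344-3p. Whether the WT count lay above or below its reckoning depends on that library. The other 8 names with a read had 9 reads or fewer in all 10 breeding trial libraries and were not tested.

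The seed of miR-344d-3p and miR-344e-3p is also carried by miR-410-3p, whose gene lies in the imprinted Dlk1 to Dio3 region, here at chr12:109743764-109743784 on the plus strand of GRCm38. Its sequence is shown for that shared seed, again in capitals.
miR-410-3p: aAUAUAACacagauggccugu

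miR-410-3p was far more abundant than the family members with its seed, at 2373, 1897 and 1829 CPM in virgin WT, with means of 2045 ± 112 CPM in Zeb1_200H and 2129 ± 47.1 CPM in Zeb1_200M (SD, n = 4 each). In CPM the groups lay close together, but on the TMM scale WT replicate 1 stood at 3855, against 1851 to 2055 in the other 10 libraries. It differed from WT by −0.40 in Zeb1_200M (adjusted p = 0.359, edgeR) and by −0.41 in Zeb1_200H (adjusted p = 0.368, edgeR), and by 0.03 and 0.00 without WT replicate 1 (adjusted p = 0.803 and 0.985, edgeR), and the sign also turned with library totals (0.07 and 0.01). Between the virgin knock-in groups the difference was 0.00 (adjusted p = 0.984, edgeR), and the 3 breeding trial comparisons gave 0.21, 0.15 and 0.08 (adjusted p = 0.200, 0.546 and 0.866, edgeR), of which the first was 0.45 with library totals (adjusted p = 0.00634, edgeR). All listed miRNAs with this seed summed to 2039 ± 295 CPM in virgin WT (n = 3), 2065 ± 113 in Zeb1_200H and 2158 ± 43.8 in Zeb1_200M (SD, n = 4 each), so that miR-344d-3p added little to the level of the seed in every genotype.

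Likeness to miR-344d-3p was described by Pearson's r of log2 TMM-scaled CPM over the 11 virgin libraries, for the 497 miRNAs outside the family with a mean count of at least 50. The 5 highest were miR-34b-3p (r 0.984, Spearman's rho 0.936), miR-124-3p.2 (0.973, 0.864), miR-124-3p.1 (0.962, 0.891), miR-328-3p (0.960, 0.809) and miR-132-5p (0.953, 0.845), against a median r of 0.0680 over all 497. Their r without WT replicate 1 was 0.978, 0.963, 0.969, 0.958 and 0.941 over 10 libraries, where miR-132-5p ranked 11 and the others 1 to 4. These values include the distance between genotypes, which the libraries share. With genotype means removed, the highest r belonged to miR-222-3p (0.744), miR-34b-3p (0.714), miR-152-3p (0.698), miR-497a-5p (0.691) and miR-137-5p (0.629), and miR-124-3p.1 ranked 24 with 0.434. Within the family, over all 11 libraries, r with miR-344d-3p was 0.753 for miR-344e-3p, 0.654 for miR-344h-3p, 0.514 for miR-344b-3p, 0.423 for miR-344-3p and 0.189 for miR-344f-5p, and it was −0.447 for miR-344i, −0.596 for miR-344c-3p and −0.602 for miR-344g-5p. With genotype means removed, those of miR-344e-3p and miR-344h-3p were 0.0143 and 0.210.

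As miR-344 is best known from nervous tissue, a list of 30 miRNAs enriched in brain was set beside the family, of which 28 were listed in the tables. In the virgin cohort they summed to 20919, 27638 and 28915 CPM in WT, 33555, 36901, 35101 and 35607 CPM in Zeb1_200H and 40265, 39703, 41638 and 36875 CPM in Zeb1_200M. Sums in the breeding trial cohort were 36015, 38864, 33273 and 38336 CPM in WT, 48471, 46038 and 50775 CPM in Zeb1_200H and 52233, 55745 and 56974 CPM in Zeb1_200M. In CPM every knock-in library of each cohort lay above every WT library, but on the TMM scale virgin WT replicate 1 (33981) lay among the Zeb1_200H libraries (32277 to 33989.7). The most abundant in virgin WT was miR-132-3p at a mean of 6129 CPM, followed by miR-135a-5p at 3699 and miR-153-3p at 3631 CPM. Every entry had a read in each virgin genotype, and 1 had none in the breeding trial Zeb1_200H libraries.

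Of 32 virgin entries of the brain list tested in edgeR, 6 rose and 0 fell in Zeb1_200M against WT, 4 rose and 0 fell in Zeb1_200H against WT, and 2 rose and 0 fell between Zeb1_200M and Zeb1_200H. Over all miRNAs tested 18 rose and 26 fell of 678, 11 rose and 23 fell of 672, and 5 rose and 10 fell of 675. The medians were 0.35, 0.36 and 0.07, beside 0.00, 0.01 and −0.01 over all. Without WT replicate 1, 18 rose and 1 fell for Zeb1_200M and 15 rose and 1 fell for Zeb1_200H, with medians of 0.35 and 0.29 beside 0.04 and 0.01, where over all miRNAs 94 rose and 74 fell of 703, and 74 rose and 77 fell of 699. Of 23 breeding trial entries tested, 9 rose and 1 (miR-129-5p, by 0.38, adjusted p = 0.0255) fell in Zeb1_200M against WT, 3 rose in Zeb1_200H against WT and 1 rose between Zeb1_200M and Zeb1_200H, with medians of 0.38, 0.18 and 0.17 beside 0.00, 0.00 and 0.02. Over all breeding trial miRNAs tested 56 rose and 43 fell of 276, 13 rose and 19 fell of 267, and 1 rose and 2 fell of 274.

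Members called in virgin Zeb1_200M against WT included the neuronal miRNA miR-124-3p, with log2 fold changes of 2.26 and 1.98 for its entries miR-124-3p.1 and miR-124-3p.2 (adjusted p = 0.000684 and 0.000177, edgeR), and miR-124-5p with 2.05 (adjusted p = 0.0110, edgeR). The others were miR-34c-5p with 1.30, miR-582-5p with 1.25 and miR-488-3p with 1.12. In Zeb1_200H the called members were the entries of miR-124-3p (1.71 and 1.382), miR-582-5p (1.01) and miR-34c-5p (1.00), and between Zeb1_200M and Zeb1_200H the entries of miR-124-3p (0.55 and 0.60). Breeding trial miR-124-3p rose by 2.48 in Zeb1_200M (adjusted p = 4.60e-14, edgeR) and by 1.64 in Zeb1_200H, and was 0.85 higher in Zeb1_200M than in Zeb1_200H. The other breeding trial members called in Zeb1_200M were miR-34c-5p (1.496), miR-9-5p (0.89), miR-487b-3p (0.84), miR-384-5p (0.64), miR-598-3p (0.56), miR-135a-5p (0.51), miR-338-3p (0.45) and miR-137-3p (0.44), and in Zeb1_200H miR-34c-5p (1.35) and miR-384-5p (0.50). The most abundant members were not called in the virgin comparisons of Zeb1_200M and Zeb1_200H with WT: miR-132-3p differed by −0.32 and −0.44, miR-135a-5p by 0.36 and 0.24 and miR-153-3p by −0.20 and −0.17, as miR-129-5p did by −0.40 and −0.27 (adjusted p = 0.114 to 0.733, edgeR). The part of these miRNAs, or of the cells that contain them, in the miR-344d-3p result was not tested.

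Markers of pituitary cell types and of tissue that a dissected pituitary could carry were counted next, in the order virgin Zeb1_200M against WT, virgin Zeb1_200H against WT, virgin Zeb1_200M against Zeb1_200H and the same for the breeding trial. Of 11 miRNAs of pituitary endocrine cells, in 12 virgin and 11 breeding trial entries (10 tested between the breeding trial knock-in groups), 9, 9, 7, 10, 9 and 2 fell and 0 rose, with medians of −2.39, −1.77, −0.49, −1.98, −2.15 and −0.31. All those called in the virgin cohort, and 8, 8 and 2 of those in the breeding trial, belong to the miR-200 family or the miR-183 cluster, and 10 fell in each of the WT comparisons without WT replicate 1. The medians and sums of this list hold the same members, and ZEB1 represses the miR-200 family. They cannot be read as a level of endocrine cells. The endocrine list summed to 439414, 327432 and 330793 CPM in virgin WT, 265652 to 292340.3 in Zeb1_200H and 239444 to 287833 in Zeb1_200M, and to 351326 to 380412, 277489 to 302455 and 254662 to 269249 CPM in the breeding trial. Its most abundant member in virgin WT was miR-7a-5p, which with miR-375-3p marks endocrine cells, at differences of −0.79 and −1.01 in virgin Zeb1_200M (adjusted p = 0.182 and 0.0764, edgeR). In the breeding trial miR-7a-5p fell by 0.45 (adjusted p = 0.00174, edgeR) and miR-375-3p by 0.62 (adjusted p = 3.17e-05, edgeR) in Zeb1_200M, and miR-375-3p fell by 0.59 in Zeb1_200H (adjusted p = 5.34e-05, edgeR), where miR-7a-5p differed by −0.16 (adjusted p = 0.330, edgeR). The endocrine marker miR-7b-5p was not called: Zeb1_200M and Zeb1_200H differed from WT by −0.16 and −0.07 in the virgin cohort (adjusted p = 0.596 and 0.825, edgeR). In the breeding trial these were −0.22 and −0.04 (adjusted p = 0.0940 and 0.845, edgeR).

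Of 6 neuron markers, all of them also in the brain list and in 7 virgin entries, 1 rose in each virgin comparison (miR-124-3p, by its 2 entries), 3, 1 and 1 rose in the breeding trial and 0 fell, with a virgin Zeb1_200M median of 0.36. In each virgin comparison with WT, 3 entries rose without WT replicate 1. These markers summed to 5861, 7702 and 8161 CPM in virgin WT, 11803 to 12948 in Zeb1_200H and 12415 to 16302 in Zeb1_200M, and to 8645 to 10670.5, 12609 to 15972 and 20195 to 20635 CPM in the breeding trial, with miR-153-3p the most abundant in virgin WT. None of them was without a read in any group.

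Of 4 markers of glia and oligodendrocytes edgeR could test 3 virgin and 2 breeding trial entries. It called 0 in the virgin comparisons, where 2, 1 and 0 had an unadjusted p below 0.05 and DESeq2 called 0, and 1 (miR-338-3p) rose in breeding trial Zeb1_200M against WT, while 0 were called in the other breeding trial comparisons (1 and 0 unadjusted, 0 by DESeq2). In each virgin comparison with WT, 2 rose without WT replicate 1. They summed to 484 to 640.2 CPM in virgin WT, 795 to 860.3 in Zeb1_200H and 785 to 891 in Zeb1_200M, and to 868 to 1197, 1333 to 1919 and 1618 to 1848 CPM in the breeding trial, mostly miR-338-3p, with 1 marker without a read in breeding trial WT. The oligodendrocyte marker miR-219a-5p had the opposite sign in the virgin comparisons with WT, −0.76 in Zeb1_200M and −0.53 in Zeb1_200H (adjusted p = 0.164 and 0.310, edgeR), at means of 155.5, 145 and 128 CPM in WT, Zeb1_200H and Zeb1_200M. Of 4 markers of endothelium and smooth muscle, in 5 virgin entries, 1 (miR-145a-5p, 0.57, adjusted p = 0.0468, edgeR) rose in virgin Zeb1_200M and 4 in breeding trial Zeb1_200M, against WT, where DESeq2 called 1 and 2. In the other 4 comparisons edgeR called 0, with 1 at an unadjusted p below 0.05 in each and 0 called by DESeq2, and without WT replicate 1 there was 1 in each virgin comparison with WT. They summed to 7676 to 8464 CPM in virgin WT, 8722 to 10689 in Zeb1_200H and 9022 to 11967 in Zeb1_200M, and to 10010.0 to 10471, 12676 to 14034 and 14404 to 15924 CPM in the breeding trial, with miR-126a-3p.1 the most abundant in virgin WT. This entry differed from WT by −0.22 in virgin Zeb1_200M and −0.26 in Zeb1_200H (adjusted p = 0.639 and 0.590, edgeR). The endothelium list had medians of 0.10 and −0.05 in these comparisons.

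Of 6 blood markers, of which 5 were listed in the virgin tables and 4 in the breeding trial tables, edgeR could test 6 virgin and 3 breeding trial entries. It called 0 in the virgin comparisons (1, 1 and 0 unadjusted, 1, 1 and 0 by DESeq2), 2 (miR-144-3p and miR-223-3p) rose in breeding trial Zeb1_200M against WT (1 by DESeq2), and 0 were called in the other breeding trial comparisons (2 and 0 unadjusted, 0 by DESeq2). The virgin counts without WT replicate 1 were 0 and 1. With all libraries miR-144-3p had the opposite sign in the virgin comparisons with WT, −0.77 in Zeb1_200M and −0.45 in Zeb1_200H (adjusted p = 0.269 and 0.583, edgeR). Blood markers, mainly miR-451a, summed to 5674 to 9991 CPM in virgin WT, 8716 to 19360.5 in Zeb1_200H and 9798 to 11641 in Zeb1_200M, and to 5827 to 8443, 6882 to 8878 and 7426 to 11098 CPM in the breeding trial. Of 5 markers of skeletal and cardiac muscle edgeR could test 5, 4 and 5 in the virgin comparisons, called 0 there (4, 2 and 0 unadjusted, 3, 2 and 0 by DESeq2) and could test 0 in the breeding trial, and without WT replicate 1 the virgin counts were 3 higher and 1 lower for Zeb1_200M and 1 higher and 1 lower for Zeb1_200H. They summed to 18.1 to 29.0 CPM in virgin WT, 23.6 to 59.4 in Zeb1_200H and 20.6 to 87.0 in Zeb1_200M, and to 11.9 to 47.0, 9.09 to 30.5 and 8.05 to 34.2 CPM in the breeding trial, where 1, 2 and 2 markers had no read. The most abundant was miR-499-5p at a mean of 10.9 CPM in virgin WT.

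Of 3 markers of pineal gland and retina, 2 entries fell in each virgin comparison and 1 in breeding trial Zeb1_200M and Zeb1_200H against WT, all of miR-183-5p, which is also in the endocrine list, and the counts were unchanged without WT replicate 1. Between the breeding trial knock-in groups edgeR could test 1 entry and called 0, with 1 at an unadjusted p below 0.05 and 0 by DESeq2. These markers, mainly miR-204-5p, summed to 1004 to 2351 CPM in virgin WT, 2123 to 2635 in Zeb1_200H and 2007 to 2206 in Zeb1_200M, and to 2818 to 3765, 2591 to 3754 and 3262 to 4163 CPM in the breeding trial, with 1 marker without a read in each breeding trial group. In CPM the sums of the neuron, glia and endothelium markers were higher in every virgin knock-in library than in every virgin WT library. On the TMM scale this held for the sum of the neuron markers only: WT replicate 1 lay among the knock-in libraries for glia (787 against 736 to 836) and above them for endothelium (12911 against 8119 to 11239.5). The neuron sum included the called entries of miR-124-3p, and its separation without them was not examined. Against WT in virgin Zeb1_200M and Zeb1_200H, the neuron list had medians of 0.36 and 0.45. Its most abundant marker, miR-153-3p, stood at −0.20 and −0.17. Without WT replicate 1 the glia sums were higher in both knock-in groups. The endothelium sums still overlapped without it, with WT replicate 2 at 8974. The part of these cell types in the miR-344d-3p result was not tested.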

How the data were processed

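Small RNA from 21 pituitaries was sequenced. The authors trimmed reads with cutadapt, removed low-quality reads, size standards and spike-ins, and matched the first 19 nt (virgin cohort, TargetScanMouse dictionary) or 18 nt (breeding trial cohort, miRBase version 20) to known miRNAs. The deposited raw counts, in 6 tables, were used. Each library stood in 2 tables with identical counts and was used once. The deposited columns of size-factor scaled values, fold changes and p-values were not used.

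Genotypes were compared pairwise within a cohort by edgeR 4.0.16 (R 4.3.3; TMM, quasi-likelihood F test, two-sided, minimum count 10, minimum total count 15) over all miRNAs, with Benjamini-Hochberg adjustment and a threshold of 0.05; log2 CPM used a prior count of 0.5. The check on simulated counts preceded it. Low members of the breeding trial were compared by exact permutation, and cohorts by an interaction term. Alternatives were DESeq2 1.42.0, its size factors, library totals, no filter, a joint fit, a replicate block and omission of each library. Named were all family members, the 5 miRNAs most like miR-344d-3p, miRNAs sharing a seed, the 3 most abundant of the brain list and its called members, and marker lists for endocrine cells, neurons, glia, blood, endothelium, muscle, and pineal and retina. Members and lists were chosen with earlier results of these data known. Tables were handled with numpy 2.4.6, pandas 2.3.3 and scipy 1.17.1.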

Additional observations from a re-analysis of the deposited data

Results flagged for a closer look

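Of 21 groups of 4 libraries examined for a library far from the others of its group, 1 held one. In virgin Zeb1_200H replicate 3 miR-344d-3p stood at 15.4 CPM, while the other 3 libraries lay between 20.3 and 20.4 CPM. The gap to the nearest of them took up 0.986 of the range of the group. Chance alone marks about 1 in 20 groups in this way. The log2 fold change of Zeb1_200H against WT was 1.42 with this library and 1.505 without it.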

How the results depend on the processing

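Of 27 tested fold changes of described members other than miR-344d-3p, 15 kept their sign and their side of the threshold under every alternative that gave a value. Under at least 1 alternative, 10 changed sign. The tested values of miR-344d-3-5p and miR-344-5p, which are below the limit for description, are not among the 27. Of these arms, miR-344d-3-5p crossed the threshold in virgin Zeb1_200M against WT without WT replicate 1. The filter left no value for miR-344h-3p in virgin Zeb1_200M against WT without Zeb1_200M replicates 1, 2 or 3, or for miR-344e-3p in virgin Zeb1_200H against WT without Zeb1_200H replicates 2, 3 or 4. The log2 fold change of miR-344d-3p ranged from 1.78 to 2.23 for virgin Zeb1_200M against WT, from 1.383 to 1.70 for Zeb1_200H against WT and from 0.40 to 0.60 between the knock-in groups. Library totals gave the upper values, 2.23 and 1.70. With each library left out in turn, called members other than miR-344d-3p numbered 0 to 1 for virgin Zeb1_200M against WT, 0 to 0 for Zeb1_200H against WT and 0 to 0 between the knock-in groups. In the breeding trial they numbered 0 to 1 for Zeb1_200M against WT and 0 to 0 in the others. The count for breeding trial Zeb1_200M against WT was 0 under DESeq2 and library totals. There miR-344-3p ranged from −0.86 to −0.40 (adjusted p = 0.0158 to 0.163, edgeR and DESeq2), with −0.67 (adjusted p = 0.0676) in DESeq2 and −0.40 (adjusted p = 0.150) with library totals.

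Sign changes were as follows, and the cause was not tested; ranges are those over omission of each library in turn. Against WT, miR-344-3p ranged from −0.0748 to 0.473 in virgin Zeb1_200M and from −0.0681 to 0.493 in Zeb1_200H, and miR-344i from −1.85 to 0.0722 and from −1.22 to 0.659, with the sign changed without WT replicate 1 each time. For virgin Zeb1_200H, miR-344f-5p went to −0.0909 in DESeq2 and −0.0702 with the replicate block and ranged from −0.320 to 0.701, and miR-344g-5p went to 0.00647 with library totals. Between the virgin knock-in groups miR-344-3p went to 0.0284 with library totals and ranged from −0.0623 to 0.0201, miR-344b-3p from −0.0314 to 0.117, miR-344e-3p from −0.0647 to 0.511 and miR-344h-3p from −0.223 to 0.239. In the breeding trial the Zeb1_200H minus WT difference of miR-344b-3p went to −0.417 in raw counts and −0.925 in TMM-scaled CPM and ranged from −5.53 to 5.90 CPM, and that of miR-344d-3p from −1.0002 to 12.6 CPM.

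Among single members, 5 values lost the threshold (all of breeding trial miR-344-3p), 1 gained it (miR-344e-3p), 2 untested values moved beyond 1 SD (miR-344d-3p with library totals), 23 changed sign and 413 did none of these. These counts leave out miR-344d-3-5p and miR-344-5p, which are below the limit for description. Of these arms, miR-344d-3-5p passed the threshold in virgin Zeb1_200M against WT without WT replicate 1 (adjusted p = 0.0452, edgeR). Over all miRNAs DESeq2 called 87 and 66 against edgeR's 44 and 34 for virgin Zeb1_200M and Zeb1_200H against WT. With library totals calls higher and lower went from 18 and 26 to 39 and 19, and from 11 and 23 to 21 and 21. In the breeding trial they went from 56 and 43 to 84 and 26, and from 13 and 19 to 54 and 15.

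Replicate numbers were not given a meaning in the sources used here. Over all tested miRNAs no comparison had every same-numbered pair above a correlation of 0.1 (breeding trial Zeb1_200H against WT: 0.0684 to 0.175). Over those with a mean count of at least 50, a subset chosen after seeing the data, that comparison had 0.159 to 0.308. With the replicate number as a block the called members other than miR-344d-3p numbered 0, 0, 0, 1, 0 and 0, as without it, while calls over all miRNAs went from 44, 34, 15, 99, 32 and 3 to 20, 18, 14, 87, 47 and 5; miR-344d-3p stood at 1.78, 1.51 and 0.46 in the virgin comparisons and miR-344-3p at −0.68 (adjusted p = 0.0219, edgeR) in breeding trial Zeb1_200M against WT.

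Depth limits the breeding trial: with 60037 to 191650 reads a library, the members other than miR-344-3p had at most 24 reads each over all 10 libraries. The virgin WT group had 3 libraries, of which replicate 1 stood apart.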
